A study of Mus musculus with 12 samples.

Results

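Serotonin receptor genes were followed in the brains of Shank2-mutant and wild-type mice given early memantine or vehicle. The set holds 9 genes (Htr1a, Htr1b, Htr1f, Htr2a, Htr2c, Htr3a, Htr4, Htr5a and Htr7) of the 19312 in the table. It was selected on measured values: it was put forward because Htr2a was raised in vehicle-treated knockouts in these same mice, so the vehicle comparison is a description here and carries no test. All 9 genes were found, and all 9 passed the filter on low values in every comparison.

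All 12 mice were male C57BL/6N mice sampled at postnatal day 25. The groups, with 3 mice each, were wild-type littermates given vehicle (WT-Veh) or memantine (WT-Mem), and mice homozygous for a deletion of Shank2 exons 6 and 7 given vehicle (KO-Veh) or memantine (KO-Mem). Memantine, an open-channel blocker of NMDA-type glutamate receptors, was given by mouth at 20 mg/kg, 2 times a day, from postnatal day 7 to 21, in 0.1% saccharin, and vehicle was saccharin alone. Shank2 is a scaffold protein of excitatory synapses. The bulk tissue was the forebrain according to the methods, so a gene's level depends both on how many cells of a type were sampled and on the RNA in each of them, and those cannot be told apart here.

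Serotonin is released in the forebrain by axons of neurons that lie in the raphe nuclei of the brainstem, and acts on a large family of receptors. Most are coupled to G proteins: the Htr1 and Htr5a products to Gi/o, which lowers cyclic AMP and opens potassium channels; Htr2a and Htr2c to Gq, which activates phospholipase C; Htr4 and Htr7 to Gs, which raises cyclic AMP. Htr3a is the exception, a subunit of a cation channel that serotonin opens directly.

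Values are normalized counts, in which 1 read was worth from 0.872 to 1.126 in the 12 mice, with relative depths of 0.89 to 1.15, so a value is close to a number of reads. The lowest receptor value was 36.7, for Htr1f. Shank2 itself lay between 7156 and 8548 in the WT mice and between 2706 and 3178 in the KO mice. Forebrain excitatory neuron markers were high in every mouse, with sums over 6 genes from 118647 to 142065. KO-Veh replicate 3 stood apart, with cerebellar transcripts (Gabra6 253.9, Fat2 949.7, Cbln3 744.8 and Pcp2 379.7) that reached at most 12.9, 66.1, 65.0 and 21.5 in the other 11 mice. For the receptor genes of the set, log2 fold changes that rest on KO-Veh are therefore also given without that mouse. They are given in full for the genes the text turns on and as the size of the shift for the others. Those of genes outside the set are given with all KO-Veh mice only, except for Itpr3 in Veh-K/W and WT-M/KO-V.

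Promoter windows of RefSeq on GRCm38.p6, from 250 bases before to 50 bases after the annotated start, are shown for the Gq-coupled receptor genes, Htr2a and Htr2c, whose group differences are described next. The Htr2a window is chr14:74640624-74640923 and the Htr2c window is chrX:146962263-146962562, both on the plus strand. Capitals mark the GC box GGGCGG on either strand, here found on the minus strand of Htr2a and not at all in Htr2c.
Htr2a: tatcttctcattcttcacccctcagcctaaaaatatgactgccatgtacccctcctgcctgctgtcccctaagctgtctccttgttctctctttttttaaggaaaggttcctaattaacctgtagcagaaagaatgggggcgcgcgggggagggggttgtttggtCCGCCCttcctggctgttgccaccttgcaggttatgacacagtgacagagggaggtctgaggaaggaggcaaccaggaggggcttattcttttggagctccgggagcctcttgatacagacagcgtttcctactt
Htr2c: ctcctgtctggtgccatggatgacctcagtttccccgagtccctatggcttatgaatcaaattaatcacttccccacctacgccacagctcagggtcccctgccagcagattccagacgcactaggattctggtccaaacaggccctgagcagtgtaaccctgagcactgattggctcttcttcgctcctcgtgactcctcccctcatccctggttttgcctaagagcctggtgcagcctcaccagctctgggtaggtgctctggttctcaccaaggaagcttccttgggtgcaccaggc
The GC box was found in 35.7% of the 32851 promoter windows of this length, and also once each in the windows of Htr1a and Htr1f. The E-box CANNTG, present in 72.3% of all windows, was found only in that of Htr5a among the 7 receptor genes with a window. The cyclic AMP response element TGACGTCA, present in 1.79% of all windows, was found in none of the 7. The GC content of the windows ran from 52.0% (Htr2a) to 81.0% (Htr7). Htr3a and Htr4 were not matched. No match overlapped a match of another motif in these windows.

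Htr2a encodes a Gq-coupled receptor of cortical pyramidal neurons and the main target of serotonergic hallucinogens. It spans 68655 bases on chromosome 14 (74640840 to 74709494, GRCm38), with 5606 exon bases. In WT-Veh mice its values were 848.7, 745.8 and 735.4, and in KO-Veh mice they were 1023, 1055 and 1070, so that every vehicle-treated knockout lay above every vehicle-treated WT mouse. The KO-Veh mice were close together, with a mean of 1049 ± 24.3 (SD, n = 3) against 776.6 ± 62.6 (SD, n = 3) in WT-Veh. The log2 fold change in Veh-K/W (KO-Veh against WT-Veh) was 0.44 ± 0.08 (SE), or 35.3% higher, and it was 0.42 without KO-Veh replicate 3.

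In the memantine-treated groups the values of Htr2a ran together. WT-Mem mice had 1058, 985.4 and 772.6, and KO-Mem mice had 838.8, 1007 and 1146. In Mem-K/W (KO-Mem against WT-Mem), the only comparison of Htr2a that shares no mouse with the selection, the log2 fold change was 0.09 ± 0.14 (SE), with a 95% interval from -0.22 to 0.40 and an adjusted p of 0.747 by limma. That interval includes 0 and reaches up to near the value seen under vehicle. Its direction turned when 1 mouse was left out, with values from -0.05 to 0.21.

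The other comparisons of Htr2a are given without a test, since they hold mice on which it was selected. Its log2 fold change was 0.26 ± 0.12 (SE) in WT-M/V (WT-Mem against WT-Veh) and -0.08 ± 0.11 (SE) in KO-M/V (KO-Mem against KO-Veh). The latter was -0.07 without KO-Veh replicate 3 and turned to 0.03 without KO-Mem replicate 1. In WT-M/V, 2 of the 3 WT-Mem mice lay above all WT-Veh mice and the third lay within them. The genotype-by-treatment term, the genotype difference under memantine minus that under vehicle, was -0.35 ± 0.17 (SE). Among all 4 groups, WT-Veh had the lowest Htr2a mean and KO-Veh the highest.

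Htr2c, the other Gq-coupled receptor gene of the set, encodes a receptor of choroid plexus epithelium and of neurons in many forebrain regions, known for its role in feeding and mood. It lies on chromosome X (146962513 to 147197277), spans 234765 bases and holds 9328 exon bases over 7 annotated transcripts. Its values were 2188, 2352 and 1864 in WT-Veh and 2812, 2511 and 2852 in KO-Veh. Under memantine they were 2199, 2358 and 2298 in WT-Mem and 2905, 2888 and 2603 in KO-Mem. All 6 KO mice thus lay above all 6 WT mice. The share of all genes that did so was not counted, and the vehicle mice among them are those of the selection. The log2 fold change of Htr2c was 0.36 ± 0.09 (SE) in Veh-K/W, and 0.32 without KO-Veh replicate 3.

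In Mem-K/W, the log2 fold change of Htr2c was 0.29 ± 0.07 (SE), 22.4% higher in KO-Mem, with a 95% interval from 0.13 to 0.45. It did not pass the threshold, with an adjusted p of 0.0957 by limma over 17646 genes (unadjusted p = 0.0021 in the same limma fit). Memantine left no difference that passed the test in either genotype: the log2 fold change was 0.04 ± 0.07 (SE) in KO-M/V (adjusted p = 0.869 by limma) and 0.10 ± 0.09 (SE) in WT-M/V (adjusted p = 0.978 by limma). The intervals of these differences ran from -0.12 to 0.20 and from -0.10 to 0.30.

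Htr3a, the ion channel subunit, is known in the cortex as a marker of interneurons that arise in the caudal ganglionic eminence, among them those that express the peptide Vip. It lies on chromosome 9 (48899213 to 48911099, minus strand), with 2083 exon bases in 9 blocks. In WT-Veh its values were 212.2, 181.8 and 198.2, and in KO-Veh they were 324.2, 224.8 and 302.2. In WT-Mem they were 194.4, 215.6 and 192.4, and in KO-Mem 356.6, 297.5 and 243.2. As for Htr2c, every KO mouse exceeded every WT mouse, and the share of all genes that did so was not counted. The KO mice were more spread out, with a coefficient of variation of 18.4% in KO-Veh and 19.0% in KO-Mem against 7.70% and 6.38% in the WT groups.

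Htr3a had the largest log2 fold change of the 9 genes in both genotype comparisons. In Veh-K/W it was 0.51 ± 0.15 (SE), and 0.45 without KO-Veh replicate 3. In Mem-K/W it was 0.56 ± 0.15 (SE), or 47.1% higher in KO-Mem, with a 95% interval from 0.22 to 0.89, an adjusted p of 0.108 and an unadjusted p of 0.00434 in the limma fit. Between treatments it was 0.08 ± 0.18 (SE) in KO-M/V (adjusted p = 0.900 by limma) and 0.03 ± 0.12 (SE) in WT-M/V (adjusted p = 0.995 by limma).

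**Figure D1:**
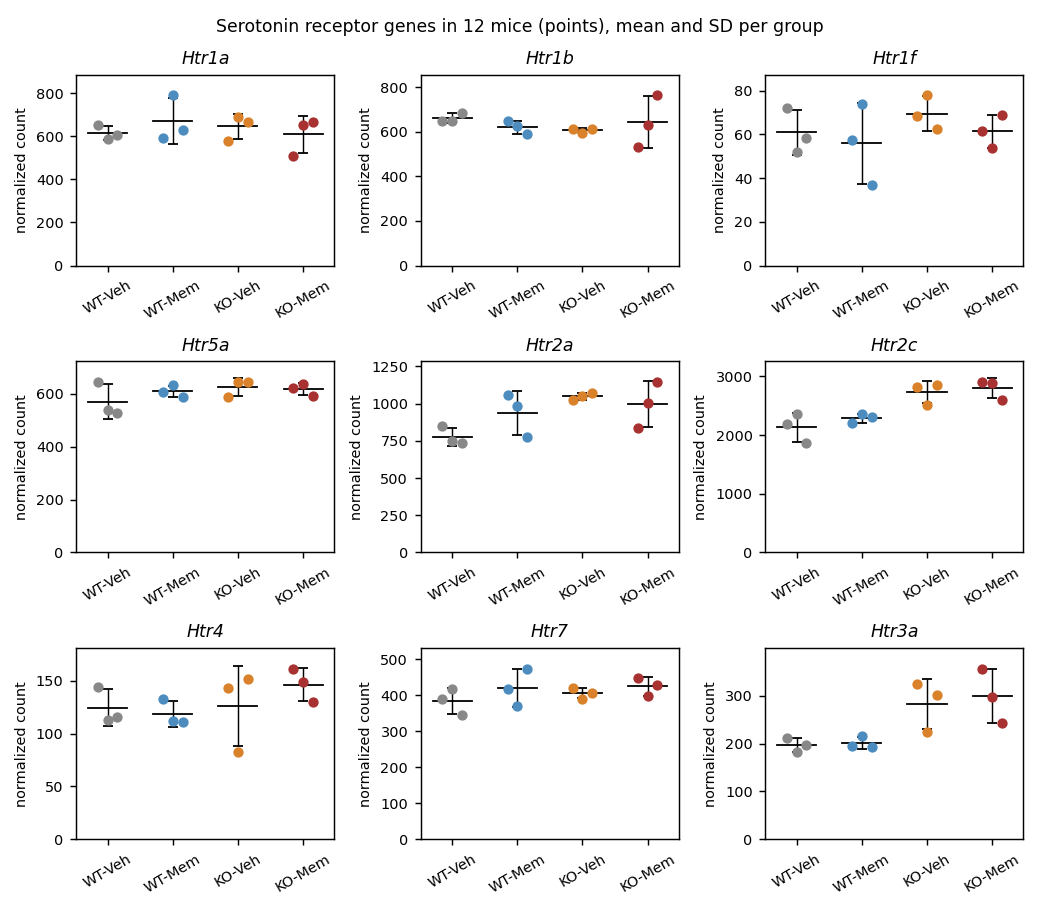
Normalized count of each of the 9 serotonin receptor genes (y axis, from 0) in the 4 groups (x axis). Points are mice, horizontal lines are group means and bars are SDs over 3 mice. Htr2c and Htr3a are higher in all 6 KO mice than in all 6 WT mice, whereas the KO and WT values of Htr2a are separate under vehicle and overlap under memantine. The share of all genes in which all 6 KO mice lay above all 6 WT mice was not counted.

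In the knockouts these 3 genes did not rank the mice in the same way. KO-Mem replicate 3 had the lowest Htr2c and Htr3a values of its group and the highest Htr2a value. KO-Veh replicate 2 likewise had the lowest Htr2c and Htr3a values among the vehicle-treated knockouts. Without KO-Mem replicate 3, both Htr2c and Htr3a passed the threshold in Mem-K/W, with log2 fold changes of 0.34 (adjusted p = 0.0187 by limma) and 0.70 (adjusted p = 0.0164 by limma). Over all alternatives tried in Mem-K/W the adjusted p ran from 0.0187 to 0.301 for Htr2c and from 0.0164 to 0.321 for Htr3a. Leaving that mouse out also raised the number of genes called across the table in Mem-K/W from 12 to 1911, so the passing of these 2 genes went with a change in the whole table.

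None of the Gi/o-coupled receptors was separated by genotype under both treatments. Htr1a, the autoreceptor of raphe neurons and a postsynaptic receptor of hippocampus and cortex, is a gene of 1 exon on chromosome 13 (105443639 to 105448122). Its values ranged from 588.2 to 652.7 in WT-Veh, 590.5 to 791.9 in WT-Mem, 580.4 to 691.3 in KO-Veh and 509.2 to 665.2 in KO-Mem, and all 4 ranges overlapped. Its log2 fold change was 0.07 ± 0.09 (SE) in Veh-K/W and -0.14 ± 0.14 (SE) in Mem-K/W (adjusted p = 0.591 by limma).

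Htr1b encodes a receptor of axon terminals that limits transmitter release. Its values were 650.6, 646.9 and 686.4 in WT-Veh and 613.6, 595.8 and 612.6 in KO-Veh, the only gene of the set whose KO-Veh values all lay below WT-Veh. The difference was small, with a log2 fold change of -0.12 ± 0.08 (SE). In KO-Mem the gene was the most spread, with 533.0, 628.6 and 765.0, and the log2 fold change in Mem-K/W was 0.03 ± 0.13 (SE, adjusted p = 0.903 by limma). Htr1b (chromosome 9, 81628291 to 81633828, minus strand) shares 852 exon bases with D430036J16Rik on the opposite strand, so without a stated strand setting its value is uncertain. D430036J16Rik ran from 83.7 to 114.4 in WT-Veh and from 108.4 to 163.7 in KO-Veh.

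Htr1f, the target of antimigraine drugs of the ditan class, was the lowest of the set (chromosome 16, 64924729 to 65105854). Its 12 values lay between 36.7 and 78.0, and both of these extremes came from groups that overlap, WT-Mem and KO-Veh. Its log2 fold changes of 0.20 ± 0.20 (SE) in Veh-K/W and 0.18 ± 0.27 (SE) in Mem-K/W (adjusted p = 0.731 by limma) had errors as large as the differences. Htr5a, a Gi/o-coupled receptor found mainly in the brain (chromosome 5, 27842149 to 27855088), was steady at group means from 570.3 to 625.0. Its log2 fold change in Mem-K/W was 0.02 ± 0.09 (SE), with an interval from -0.17 to 0.21 (adjusted p = 0.914 by limma).

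Of the Gs-coupled receptors, Htr4 is best known from hippocampus, striatum and gut, and lies on chromosome 18 (62324204 to 62496577). Its values were 144.6, 113.2 and 115.7 in WT-Veh and 143.3, 82.4 and 151.9 in KO-Veh, and 133.1, 111.8 and 111.4 in WT-Mem and 161.5, 148.5 and 129.7 in KO-Mem. KO-Veh replicate 2 and KO-Mem replicate 3 were again the lowest of their groups. In Mem-K/W the log2 fold change of Htr4 was 0.30 ± 0.16 (SE, adjusted p = 0.297 by limma), and only the lowest KO-Mem mouse fell within the WT-Mem range. In Veh-K/W it was -0.03 ± 0.23 (SE), and ran from -0.19 without KO-Veh replicate 3 to 0.25 without KO-Veh replicate 2, so single mice set its direction. In KO-M/V it was 0.26 ± 0.23 (SE, adjusted p = 0.718 by limma), and 0.42 without KO-Veh replicate 3.

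Htr7, a receptor of thalamus, hypothalamus and hippocampus linked to circadian timing, lies on chromosome 19 (35958734 to 36057507). Its group means were between 383.8 and 424.3 and its ranges overlapped in all comparisons. Its log2 fold change was 0.08 ± 0.10 (SE) in Veh-K/W and 0.02 ± 0.12 (SE) in Mem-K/W (adjusted p = 0.938 by limma).

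Veh-K/W was the comparison with which the set was chosen, so the outcome of its fit is no test of the 9 genes. There 0 of the 9 genes passed the adjusted threshold of 0.05, and 0.0283% of the 17671 tested genes did. The study's own DESeq2 test of these mice called more genes in this comparison than the limma fit used here, Htr2a among them. In that comparison 3 receptor genes were higher (Htr2a, Htr2c, Htr3a) and 1 lower (Htr1b) without overlap, and 20.4% of all tested genes had groups that did not overlap. These counts are a description and nothing is read from them. Leaving out KO-Veh replicate 3 shifted the Veh-K/W log2 fold changes of Htr1a, Htr1b, Htr5a and Htr7 by at most 0.03 in size, that of Htr1f by 0.08 (to 0.27) and that of Htr4 by -0.16. In Mem-K/W, 0 of 9 passed, against 0.068% of all genes. An unadjusted p under 0.05 in the limma fit was reached by 2 of 9, and by 3702 of the 17646 tested genes. There 2 of 9 genes, Htr2c and Htr3a, did not overlap between the groups, against 26.2% of all genes, so the share of receptor genes was near that of the table. The median log2 fold change over the 9 genes was 0.09 in Mem-K/W against 0.002 over all genes, and its median size, 0.14, was below the 0.16 of all genes.

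The treatment comparisons gave no call among the receptor genes. In KO-M/V, 0 of the 8 genes other than Htr2a passed (0.0% of all genes), with 0 at an unadjusted p under 0.05 in the limma fit, and none of the 9 had separate groups (13.9% of all genes). In WT-M/V, 0 of those 8 passed (0.0114% of all genes), with 0 at an unadjusted p under 0.05, and none had separate groups (9.34% of all genes). The median sizes of the 9 log2 fold changes, 0.08 and 0.10, stood beside 0.11 and 0.09 over all genes. The 95% intervals in KO-M/V ran from -0.62 to 0.26 for Htr1f, -0.26 to 0.79 for Htr4 and -0.33 to 0.48 for Htr3a, so changes of such sizes were not excluded. The genotype-by-treatment term, given without a test because it holds the vehicle comparison, lay between -0.35 ± 0.17 (SE, Htr2a) and 0.33 ± 0.29 (SE, Htr4) over the 9 genes, and was -0.07 ± 0.12 (SE) for Htr2c and 0.05 ± 0.22 (SE) for Htr3a. Without KO-Veh replicate 3 it was -0.33 for Htr2a, 0.49 for Htr4, -0.03 for Htr2c and 0.10 for Htr3a, and KO-M/V was 0.07 for Htr2c and 0.13 for Htr3a.

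**Figure D2:**
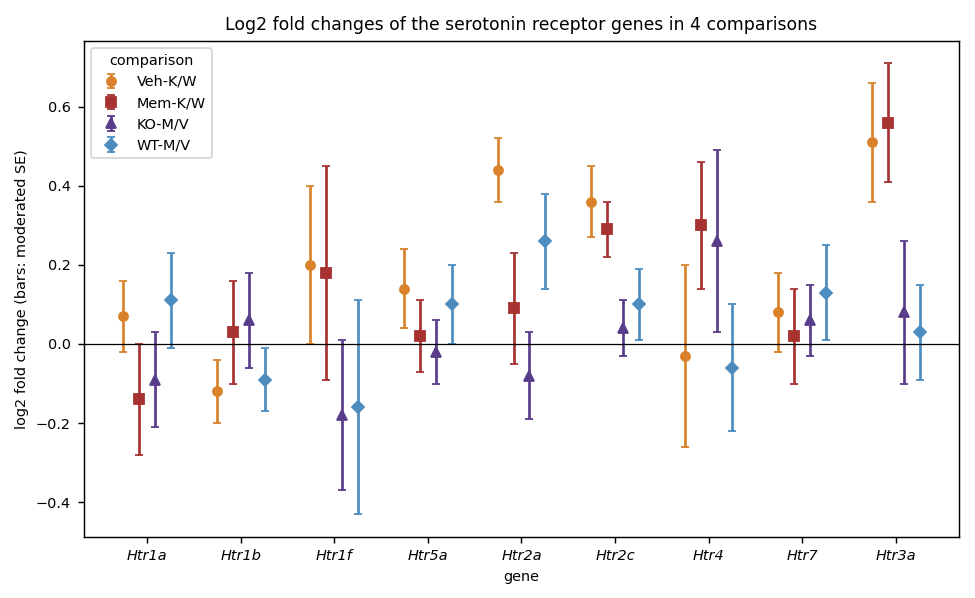
Log2 fold change (y axis) of each receptor gene (x axis) in 4 comparisons, with the moderated SE of the limma fit as bars. Htr2c and Htr3a lie above 0 in both genotype comparisons, Htr2a does so in Veh-K/W at 0.44, and its Mem-K/W value of 0.09 is within its SE of 0. The comparisons share mice, so the 4 values of a gene are not independent.

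The crosswise comparisons share their mice with those above and are given beside them. In KO-M/WT-V (KO-Mem against WT-Veh), the log2 fold change of Htr2c was 0.40 ± 0.09 (SE), with an adjusted p of 0.0504 by limma, just short of the threshold, and that of Htr3a was 0.58 ± 0.15 (SE), with an adjusted p of 0.0619 by limma. In this comparison 0 of 8 genes passed, against 3.37% of all genes. An unadjusted p under 0.05 in limma was found for 2 of 8, and for 4566 of all 17662 genes. Of the 9 genes, 2 did not overlap, against 31.1% of all genes. The adjusted p of Htr2c was on either side of the threshold depending on the setting, from 0.0132 to 0.177 over all alternatives, and that of Htr3a ran from 0.0134 to 0.202. In WT-M/KO-V (WT-Mem against KO-Veh), the log2 fold change of Htr2c was -0.25 ± 0.07 (SE, adjusted p = 0.435 by limma) and that of Htr3a was -0.48 ± 0.15 (SE, adjusted p = 0.464 by limma). There 0 of 8 passed (0.0227% of all genes) and 2 of 9 did not overlap (14.9% of all genes). An unadjusted p under 0.05 in limma was found for 2 of 8, and for 1577 of all 17648 genes. Without KO-Veh replicate 3 the log2 fold changes were -0.22 for Htr2c and -0.43 for Htr3a.

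The levels of the 9 genes were compared with each other per kilobase of exon. In WT-Veh, Htr2c was highest at 229 ± 26.6 (SD, n = 3) normalized counts per kilobase, above the ranges of all others. Htr1b (140), Htr2a (139) and Htr1a (137) followed with overlapping ranges. Htr7 (113), Htr5a (106) and Htr3a (94.7) formed the next step, each overlapping its neighbour. Htr4 (25.4) and Htr1f (23.6) were lowest and did not differ beyond their spread.

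The order was not the same in every group. Htr2a was the third in WT-Veh, where its range overlapped that of Htr1b, and the second gene in WT-Mem (167), KO-Veh (187) and KO-Mem (178). In KO-Veh its range lay above that of Htr1a. Htr3a was the seventh gene in both WT groups, the fourth in KO-Veh at 136 and the third in KO-Mem at 144, overlapping Htr1b in both. Without KO-Veh replicate 3 the order in KO-Veh was the same for these genes, with Htr2a at 185 and Htr3a at 132. Per kilobase of coding sequence instead, Htr3a stayed the seventh in all 4 groups, at 193 in KO-Veh, so its place in the order rests on the exon length used. Htr2c was first with every length, and its WT-Veh level rose from 229 to 437 per kilobase when its longest transcript replaced all annotated exons.

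**Figure D3:**
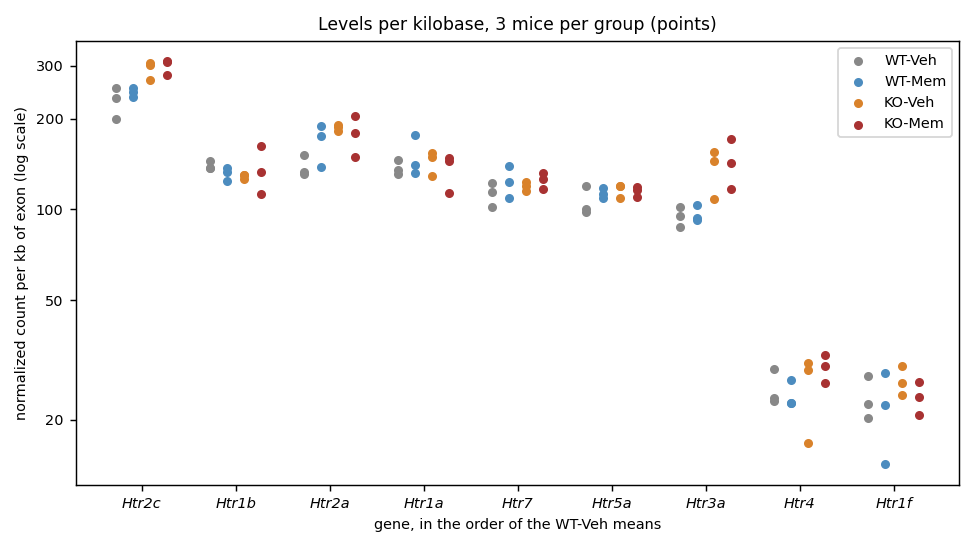
Normalized count per kilobase of annotated exon (log y axis) for the 9 receptor genes, ordered by their WT-Veh mean (x axis), with 1 point per mouse and colours for the 4 groups. Htr2c is at the top in every group and Htr4 and Htr1f are at the bottom, with KO points of Htr3a rising to the level of Htr1a and Htr1b.

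Other receptor genes outside the set gave no calls. Of Htr1d, Htr2b, Htr5b and Htr6, the table held all 4, and 3 were tested, because Htr2b had a mean of 7.07. In every comparison 0 of 3 passed or had an unadjusted p under 0.05 in limma. Unlike most genes of the set, 0 of 3 had a positive log2 fold change in Veh-K/W (median -0.12) or in Mem-K/W (median -0.09). Htr6, a Gs-coupled receptor of striatum and cortex, was lower without overlap in KO-Mem (mean 143.8) than in WT-Mem (171.0). In that comparison 26.2% of all tested genes did not overlap. The log2 fold change of Htr6 was -0.24 ± 0.14 (SE), at an adjusted p of 0.355 by limma. Htr3b was looked for but was not among the genes of the table.

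The downstream arms of the receptors were read from lists of their G proteins and effectors. Of the 12 tested genes of the Gq arm, on which Htr2a and Htr2c act, 1 passed in Veh-K/W and 1 in KO-M/WT-V. In Mem-K/W 0 passed and 2 had an unadjusted p under 0.05 in limma. Over all genes, 0.0283% passed in Veh-K/W, 3.37% in KO-M/WT-V and 0.068% in Mem-K/W, where 3702 of 17646 had an unadjusted p under 0.05. The gene in Veh-K/W was Itpr3, a calcium release channel opened by the product of phospholipase C. Its values were 231.7, 268.4 and 244.9 in WT-Veh, 513.0, 403.9 and 504.3 in KO-Veh, 248.1, 227.4 and 222.5 in WT-Mem, and 359.0, 300.5 and 242.7 in KO-Mem. Like Htr2a, it was highest in KO-Veh, and it was lower without passing the test in KO-Mem (log2 fold change in KO-M/V -0.66 ± 0.16 (SE), adjusted p = 0.554 by limma). In Veh-K/W its log2 fold change was 0.92 ± 0.12 (SE, adjusted p = 0.0493 by limma), and 0.87 with an adjusted p of 0.297 without KO-Veh replicate 3, the mouse with cerebellar transcripts, so the call was lost without it. It was lost under all its other alternatives too, except without KO-Veh replicate 2, with adjusted p-values from 0.0164 to 0.297. The same gene was also called in WT-M/KO-V (-1.02 ± 0.12 (SE), adjusted p = 0.0268 by limma), a call lost on leaving out any 1 mouse but KO-Veh replicate 2 (log2 fold changes from -1.13 to -0.95, adjusted p = 0.196 without KO-Veh replicate 3), with the replicate number as a block (adjusted p = 0.069) and without trend (adjusted p = 0.215).

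The gene of the Gq arm called in KO-M/WT-V was Gna11, a Gq-family alpha subunit, with 5617 ± 465 (SD, n = 3) for KO-Mem against 4359 ± 271 (SD, n = 3) for WT-Veh (log2 fold change 0.36 ± 0.08 (SE), adjusted p = 0.0422 by limma). That call held only without KO-Mem replicate 3 when 1 mouse was left out, and over all its alternatives the adjusted p ran from 0.00731 to 0.161. Of the 9 Gi/o arm genes and the 11 Gs arm genes, 0 passed in Mem-K/W. An unadjusted p under 0.05 in limma was found for 1 and 6 of them, against 3702 of all 17646 genes. The smallest p-values of these arms there belonged to Gnao1, the Go alpha subunit (-0.15 ± 0.06 (SE), adjusted p = 0.193 by limma), and Adcy2, an adenylyl cyclase (-0.26 ± 0.07 (SE), adjusted p = 0.117 by limma). Among 11 receptor partners and regulators 0 passed in Mem-K/W, with 4 at an unadjusted p under 0.05. Rgs4, which speeds the shut-off of Gi/o and Gq proteins, came nearest, with -0.44 ± 0.10 (SE, adjusted p = 0.0919 by limma). In the other comparisons no further gene of the Gq, Gi/o, Gs and partner lists passed. An unadjusted p under 0.05 was found for 0 to 4 genes of a list. Over all genes it was found for 697 of 17564 in WT-M/V, the fewest, to 4566 of 17662 in KO-M/WT-V, the most. The smallest p-values in Veh-K/W belonged to Gnao1 (log2 fold change -0.13 ± 0.06 (SE)), Adcy7, another adenylyl cyclase (0.29 ± 0.10 (SE)), and Rgs2, a regulator of Gq (-0.34 ± 0.11 (SE)). In Mem-K/W the median log2 fold changes were -0.05 for the Gq arm, -0.06 for Gi/o, -0.14 for Gs and -0.11 for the partners, against 0.002 over all genes, and the smallest p of the Gq arm was that of Gna11 (0.19 ± 0.07 (SE), adjusted p = 0.177 by limma).

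Of the genes for serotonin synthesis, transport and breakdown, 0 of 16 tested passed in Mem-K/W, against 0.068% of all genes. In KO-M/WT-V 1 of 17 passed, against 3.37% of all genes. In Mem-K/W, 6 of the 16 had an unadjusted p under 0.05 in limma, against 3702 of all 17646 genes. The median log2 fold change of the list in Mem-K/W was -0.01. The called gene was Qdpr, which regenerates the tetrahydrobiopterin cofactor of tryptophan hydroxylase and is also strongly expressed in oligodendrocytes. Qdpr fell from 3018 ± 416 (SD, n = 3) in WT-Veh to 1664 ± 353 (SD, n = 3) in KO-Mem, by -0.87 ± 0.14 (SE) on the log2 scale, at an adjusted p of 0.0258 by limma. The call was lost without WT-Veh replicate 2 or 3 or KO-Mem replicate 1 or 2, and its adjusted p ran from 0.00143 to 0.146 over all alternatives. It also had the smallest p of the list in Veh-K/W (-0.53 ± 0.12 (SE)) and in Mem-K/W (-0.51 ± 0.13 (SE), adjusted p = 0.103 by limma). The summed level of 4 oligodendrocyte markers ranged from 264471 to 331623 in WT-Veh, 237661 to 279190 in WT-Mem, 230037 to 246375 in KO-Veh and 192753 to 228765 in KO-Mem, and its part in the Qdpr result was not tested. Transcripts of serotonin neurons were low and uneven between mice: Tph2, their synthetic enzyme, ran from 16.7 to 229.9 and the transporter Slc6a4 from 0.91 to 188.7 over the 12 mice.

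Markers of cells that express the receptors were read beside them. For Htr2c, the 12 choroid plexus epithelium markers, all above 0 in every mouse, summed to 24771 to 27878 in WT-Veh, 24735 to 26020 in WT-Mem, 20594 to 27471 in KO-Veh and 13999 to 25002 in KO-Mem. Ttr and Enpp2 made up 94.1% of the sum. The correlation of Htr2c with the sum over the 12 mice was -0.67 (Pearson's r, Spearman's rho -0.63), which is in effect that with these 2 genes. In Veh-K/W the log2 fold change was -0.04 ± 0.11 (SE) for Ttr and -0.27 ± 0.08 (SE) for Enpp2. In Mem-K/W it was -0.45 ± 0.19 (SE) and -0.47 ± 0.14 (SE). Whether the sum follows the choroid plexus alone was not tested, nor was the part of these markers in the Htr2c result. In Mem-K/W, 0 of these 12 markers passed in limma and 11 had a negative log2 fold change. An unadjusted p under 0.05 in limma was found for 4 of the 12, against 3702 of all 17646 genes.

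For Htr3a, the 10 markers of interneurons from the caudal ganglionic eminence summed to 17873 to 19446 in WT-Veh, 18318 to 19294 in WT-Mem, 16228 to 17928 in KO-Veh and 15567 to 17558 in KO-Mem, with none at 0 in any mouse. Gene by gene the list was split. In Veh-K/W 5 of 10 log2 fold changes were positive (median 0.02), and in Mem-K/W 4 of 10 (median -0.07). The summed level, in which Cck, Reln and Lamp5 weigh most, went the opposite way from Htr3a. Vip, within the same list, went with Htr3a. Vip was 503.2 to 528.7 in WT-Veh and 520.4 to 530.4 in WT-Mem. In the knockouts it was 559.8 to 702.9 in KO-Veh and 544.7 to 765.6 in KO-Mem. All KO mice again lay above all WT mice, and the share of all genes that did so was not counted. In Mem-K/W the log2 fold change of Vip was 0.34 ± 0.13 (SE, adjusted p = 0.168 by limma), and those of Cck and Lamp5 were -0.32 ± 0.09 (SE, adjusted p = 0.112 by limma) and -0.27 ± 0.06 (SE, adjusted p = 0.0926 by limma). KO-Veh replicate 2 and KO-Mem replicate 3, the lowest of their groups in Htr3a, were also the lowest in Vip.

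**Figure D4:**
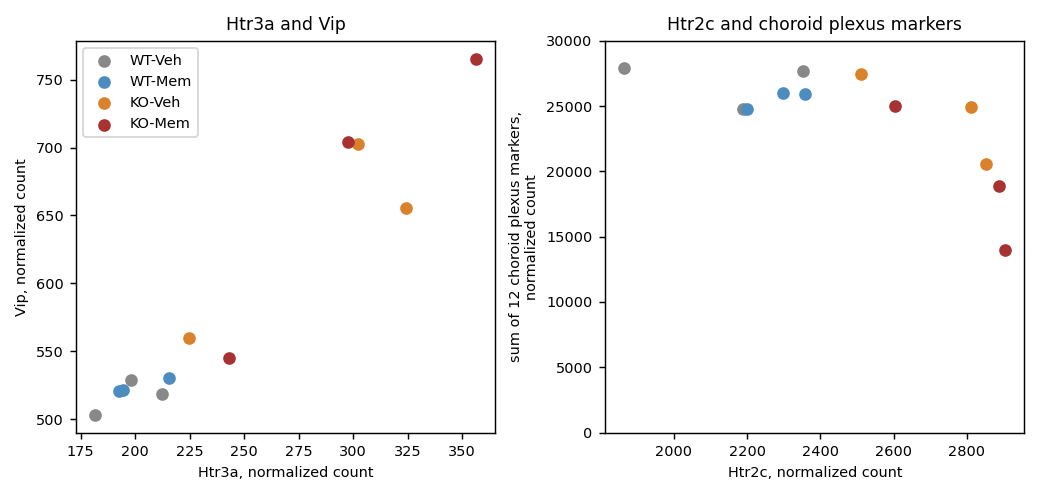
Left, Vip against Htr3a, and right, the sum of 12 choroid plexus markers against Htr2c, both as normalized counts with 1 point per mouse and colours for the 4 groups. On the left the WT mice sit together at 181.8 to 215.6 for Htr3a and the KO mice spread upward in both genes, and on the right the KO mice with the highest Htr2c have the lowest marker sums, down to 13999. The axes of the left panel and the x axis of the right panel do not start at 0.

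For Htr2a, the summed markers of deep-layer cortical excitatory neurons (8 genes) were 11534 to 13556 in WT-Veh and 12548 to 13493 in KO-Veh, and those of forebrain excitatory neurons (6 genes) 118647 to 136252 and 127130 to 142065. Their part in the Htr2a result was not tested.

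The genes whose log2 values were most like those of Htr2a, Htr2c and Htr3a over the 12 mice were taken from 14240 genes, as a description. For Htr2a they were Scn7a (Pearson's r 0.926), C1ql3 (0.894), Tnfrsf18 (0.879), Cyp4x1 (0.864) and Mre11a (0.863). For Htr2c they were Gpr101 (0.948), Efnb2 (0.947), Cnot1 (0.947), Pcdhb9 (0.946) and Snx4 (0.946). For Htr3a they were Gm26703 (0.976), Uvssa (0.968), C4b (0.959), Brf1 (0.958) and Vip (0.956). After the group means were taken out, the values of the leading genes were 0.884 for Scn7a, 0.833 for Gpr101 and 0.955 for Gm26703. All of these are the highest of many correlations over the same mice, so their size is partly set by the choice. Among the receptor genes themselves, Htr2c and Htr3a were the most alike, with r of 0.85, or 0.49 with the group means taken out, followed by Htr3a and Htr4 at 0.63 and 0.80.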

How the data were processed

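RNA from the brain of 12 mice, 3 per group, was sequenced by the study. The tissue is forebrain in the methods and whole brain in the labels. The deposited signal values are gene-level normalized counts: the authors quantified reads with Salmon (1.1.0 in the submitters' processing notes) against GRCm38, imported them with tximport, and divided them by DESeq2 (1.26.0) normalization factors, without log transformation. Because gene-specific length factors are part of this division, whole reads could not be recovered and no count model was used. A strand setting for the counting is not given in the sources used here.

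Positions and exon lengths came from GENCODE M21, which matched 19295 of 19312 genes. Tests used limma 3.58.1 in R 4.3.3 (lmFit, then eBayes with trend) on log2(value + 1), for genes with a mean of at least 10 over the 6 mice fitted, with Benjamini-Hochberg adjustment over all tested genes and a threshold of 0.05. The script was tested on simulated data. Groups came from the labels, which number the mice of each group, and no mice were pooled. Alternatives were a pseudocount of 5, a filter at 50 or none, rescaling to equal totals, quantile normalization, no trend, a replicate block, a joint fit of 12 mice and leaving out each mouse. Promoter windows came from RefSeq (GRCm38.p6), and matched 7 of the 9 genes.

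The receptor genes and the gene lists were chosen with earlier results of these data known. Named genes were the receptor genes, other receptor genes, Shank2, in each pathway list the genes called and those with the smallest p in each genotype comparison, and the 5 genes most correlated with Htr2a, Htr2c and Htr3a. Marker genes given with values, Tph2, Slc6a4 and D430036J16Rik fall outside this rule and were chosen after their values were seen.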

Additional observations from a re-analysis of the deposited data

How the results depend on the processing

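P-values rest on 3 mice per group and set each group difference against the spread between these mice, moderated by that of other genes. The values are not read counts, so no counting interval was set, and the part of depth in the wide errors of Htr1f and Htr4 was not tested. The direction of Htr2a, Htr2c and Htr3a in Veh-K/W was the same under all alternatives. So was that of Htr2c and Htr3a in Mem-K/W, KO-M/WT-V and WT-M/KO-V. The groups did not overlap for these genes there, so leaving out any mouse could not turn the direction. The stable direction in those fits is therefore no check of these differences. Veh-K/W was also the comparison of the selection, so nothing is read from the direction there. Under every alternative 0 receptor genes passed in KO-M/V, in WT-M/V or in WT-M/KO-V. The cause of the changes listed next was not tested.

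In KO-M/WT-V the number of receptor genes called went from 0 to 1, Htr2c, with a pseudocount of 5 (log2 fold change 0.39, adjusted p = 0.0486 by limma), a filter at 50 (0.40, 0.0471), rescaling to equal totals (0.41, 0.0438) and the replicate block (0.40, 0.0285), and to 2 with all 12 mice in one fit, for Htr2c (0.40, 0.0132) and Htr3a (0.58, 0.0313). Leaving out 1 mouse gave 0 to 2 called receptor genes in Mem-K/W and in KO-M/WT-V, and the 2 came without KO-Mem replicate 3. In that case the adjusted p in KO-M/WT-V was 0.0224 for Htr2c and 0.0134 for Htr3a by limma. With quantile normalization the log2 fold changes of Htr5a in KO-M/V and Htr1a in KO-M/WT-V turned to 0.00.

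The replicate numbers do not pair the mice: deviations of mice with the same number correlated between -0.175 and 0.080 across groups. The replicate block changed no other receptor call, and it moved the genes called in the whole table from 5 to 2 in Veh-K/W, 12 to 4 in Mem-K/W, 2 to 1 in WT-M/V and 595 to 999 in KO-M/WT-V.

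Across the table, the number of genes called in Veh-K/W (5) was 3 with a pseudocount of 5, 2 with a filter at 50, 2 in the joint fit and 2 to 53 on leaving out 1 mouse. In Mem-K/W (12) it was 5 with no filter, 4 without trend, 636 in the joint fit and 2 to 1911 on leaving out 1 mouse. In KO-M/V (0, with 1573 at an unadjusted p under 0.05) it was 0 to 97. In WT-M/V (2) it was 1 with a pseudocount of 5 or quantile normalization, 0 with a filter at 50 or in the joint fit, and 1 to 3. In KO-M/WT-V (595) it was 365 with no filter, 7 without trend, 2067 in the joint fit and 1 to 2490. In WT-M/KO-V (4) it was 0 without trend, 2 with the replicate block and 1 to 5 on leaving out 1 mouse.

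The direction of these log2 fold changes, of which none passed, turned when 1 mouse was left out. In Mem-K/W they ran from -0.07 to 0.11 for Htr7, -0.10 to 0.16 for Htr1b, -0.09 to 0.40 for Htr1f, -0.05 to 0.21 for Htr2a and 0.00 to 0.05 for Htr5a. In KO-M/V they ran from -0.02 to 0.09 for Htr2c, -0.08 to 0.22 for Htr3a, -0.02 to 0.42 for Htr4, -0.06 to 0.01 for Htr5a, -0.19 to 0.03 for Htr2a (not tested), -0.17 to 0.03 for Htr1a and -0.07 to 0.19 for Htr1b. In WT-M/V they ran from -0.15 to 0.05 for Htr4, -0.03 to 0.08 for Htr3a, -0.01 to 0.20 for Htr1a and -0.38 to 0.11 for Htr1f. In KO-M/WT-V they ran from -0.10 to 0.10 for Htr1a, -0.09 to 0.15 for Htr1f and -0.19 to 0.07 for Htr1b. In WT-M/KO-V they ran from -0.08 to 0.13 for Htr1a, -0.32 to 0.12 for Htr4 and -0.04 to 0.13 for Htr7. In Veh-K/W, where the genes carry no test, Htr4 ran from -0.19 to 0.25. The untested genotype-by-treatment term turned for Htr1f (-0.29 to 0.21), Htr2c (-0.14 to 0.03), Htr3a (-0.11 to 0.19) and Htr7 (-0.15 to 0.03).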
